A study of Mus musculus with 6 samples.

Results

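The cytokine receptors and ligands of gp130 signalling are 9 genes, matched by exact symbol to the 24346 gene symbols listed for each library. They are Il6st, which encodes the shared receptor chain gp130, its partner receptor genes Osmr, Lifr, Cntfr, Il6ra and Il11ra1, and the ligand genes Lif, Cntf and Clcf1. All 9 were listed, and 7 had a mean of at least 0.5 FPKM over the 6 libraries and were tested among 14176 genes. Il6ra and Lif were below that level. FPKM counts fragments per kilobase of transcript scaled to the size of the library, so levels of different genes can be set side by side. RNA came from whole mouse retina of 2 genotypes, 3 Unc119-/- libraries (knockout) and 3 Unc119+/+ libraries (wild type). The labels give no age, sex, strain, treatment or Unc119 allele, and do not say whether each library is a separate animal. The p-values thus measure the spread between libraries, which may be technical in part. The study's title names JAK-STAT signalling in cone-rod dystrophy, and gp130 receptors are a main entry to that pathway.

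Cytokines of the interleukin-6 family act through gp130, a membrane protein that transmits the signal but needs a partner to recognise each ligand. LIF binds LIFR with gp130, oncostatin M in mice binds mainly OSMR with gp130, and CNTF and CLCF1 (cardiotrophin-like cytokine factor) bind CNTFR together with LIFR and gp130. Interleukin-6 and interleukin-11 bind IL6RA and IL11RA1, which then join gp130 chains. The assembled receptors activate JAK kinases and STAT3, and STAT3 induces SOCS3, which blocks the receptor again. In injured retina LIF is known to be made by Müller glia and to support the survival of photoreceptors, and CNTF is known there as a survival factor.

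The libraries were checked before the members were read. Unc119 itself, which encodes a carrier of lipid-modified proteins in photoreceptors, was listed at 510.2, 459.9 and 448.5 FPKM in knockout replicates 1, 2 and 3, against 1191, 1187 and 1206 FPKM in wild type, lower in each knockout library. Its knockout mean was 0.396 times the wild-type mean, so the transcript was reduced and not lost. A value per gene does not show which exons the remaining reads came from. The rod transducin gene Gnat1 was at 5918 to 6322 FPKM in knockout and 6014 to 6528 FPKM in wild type, and Glul, the glutamine synthetase of Müller glia, at 787 to 801 FPKM in knockout and 831 to 892 FPKM in wild type. By Xist and Y-linked genes, knockout replicate 1 was male and replicates 2 and 3 female, while wild-type replicates 1 and 2 were male and replicate 3 female. Libraries of different sex within a genotype thus came from different animals, and whether those of the same sex did is not stated. A list of 10 lens genes summed to 222, 495 and 10686 FPKM in knockout replicates 1, 2 and 3 and to 105, 647 and 0.704 FPKM in wild-type replicates 1, 2 and 3. Knockout replicate 3 thus stood apart by its lens RNA, and results of the tested members are given without it where that moves them. A list of 4 corneal and epithelial genes summed to 2.11 to 22.7 FPKM in knockout and 0.412 to 7.70 FPKM in wild type. For 5 pigment epithelium genes the sums were 19.7 to 73.3 FPKM and 24.5 to 46.8 FPKM. Krt12 of the cornea was highest in knockout replicate 1 (14.8 FPKM), and Rpe65 of the pigment epithelium in knockout replicate 2 (14.1 FPKM). What these tissues added to members was not tested. A listed 0 need not mean a low level in these libraries, since Rpl26, a ribosomal protein gene that every cell uses, was listed at 0, 9.22 and 30.0 FPKM in knockout replicates 1, 2 and 3 and 11.5, 0 and 0 FPKM in wild type. The absolute depth is unknown; relative to wild-type replicate 2 it was 0.931 to 0.964 in knockout libraries and 0.763 to 1 in wild type.

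In the knockout retina the oncostatin M receptor gene Osmr was listed at 2.16 times its wild-type mean, and Cntf and Lif at 2.0 and 1.94 times theirs, while Il6st, Lifr and Cntfr were at 1.10, 0.932 and 0.921 times their wild-type means. No ratio is given for Il6ra, which was listed at 0 in 1 wild-type library. None of the 7 tested members passed limma's test at an adjusted p of 0.05, a threshold that 0.233% of all tested genes passed (0.205% higher and 0.0282% lower). At an unadjusted p under 0.05 there were 2 members, Osmr and Cntf, both higher in knockout, against 5.19% of all tested genes in that direction and 3.81% in the other. Every knockout library was above every wild-type library for 3 of the 7 (Osmr, Cntf and Clcf1), against 7.83% of all tested genes. Every knockout library was below every wild-type library for 2 of the 7 (Lifr and Cntfr), against 8.04%. The median log2 difference of the 7 was 0.13, beside −0.00 over all genes. In whole retina, more or fewer cells of a type and more or less RNA per cell cannot be told apart.

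**Figure D1:**
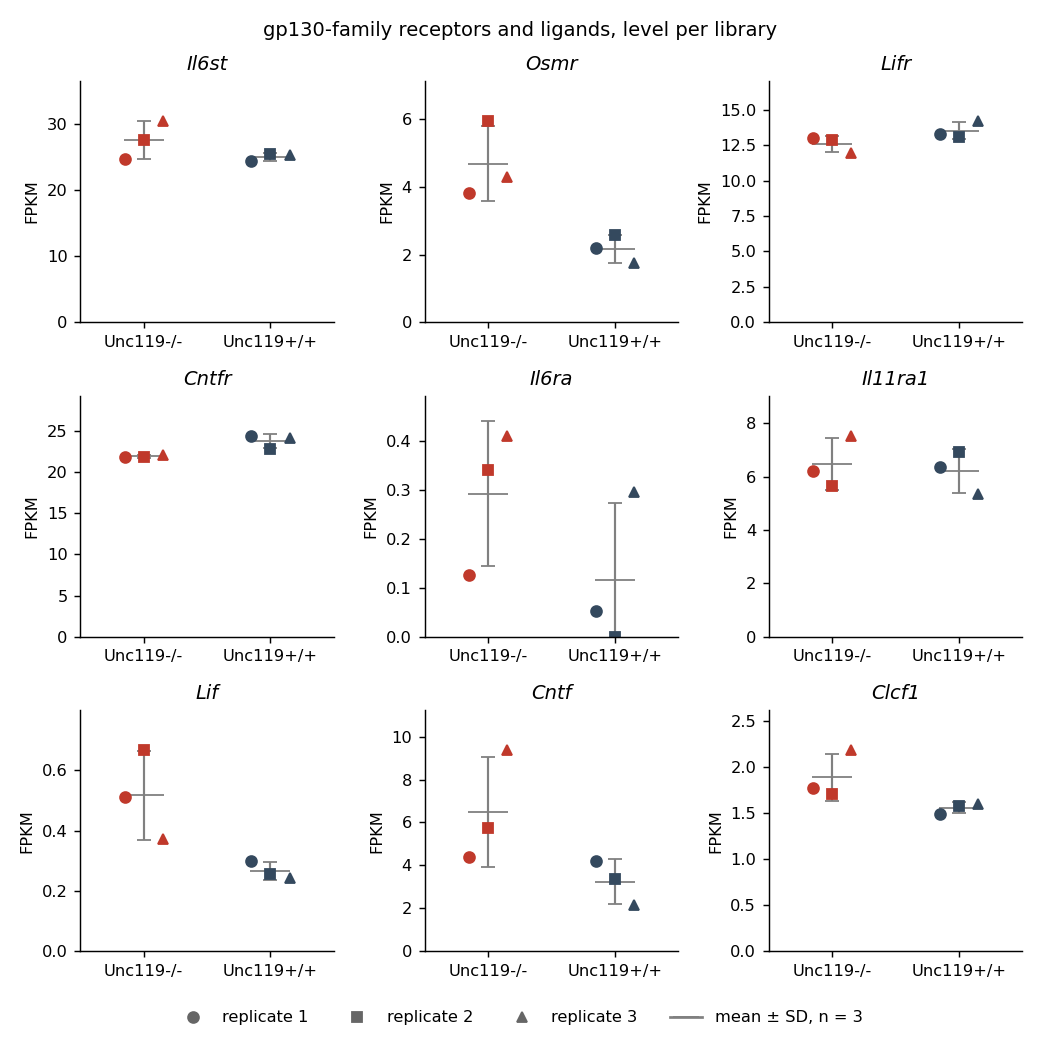
FPKM of the 9 genes in each library, knockout (Unc119-/-, red) left of wild type (Unc119+/+, blue), with the mean and SD of 3 libraries and an axis from 0 in each panel. The genotypes do not overlap for Osmr, Lif, Cntf and Clcf1, higher in knockout, and for Lifr and Cntfr, lower in knockout.

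The shared chain was the most abundant member. Il6st (ENSMUSG00000021756.12, chromosome 13, 112464070 to 112510086, plus strand, mm10 with GENCODE M21 annotation) was at 24.7, 27.7 and 30.5 FPKM in knockout replicates 1, 2 and 3, against 24.4, 25.5 and 25.3 FPKM in wild type. The genotypes overlapped, since knockout replicate 1 lay between wild-type values, and knockout replicate 3 was highest. The log2 difference was 0.13 (95% interval −0.05 to 0.31, limma adjusted p = 0.645). It was 0.06 without knockout replicate 3 and 0.04 when the fit also held a term for lens RNA (the mean log2 level of the lens genes). A mean of 26.4 FPKM over the 6 libraries put Il6st above 77.2% of the tested genes.

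Osmr had the largest log2(FPKM + 1) difference of the 4 tested partner receptors. Its product pairs with gp130 to bind oncostatin M. Osmr (ENSMUSG00000022146.12, chromosome 15, 6813577 to 6874969, minus strand) was at 3.82, 5.94 and 4.29 FPKM in knockout replicates 1, 2 and 3, against 2.18, 2.58 and 1.74 FPKM in wild type. All 3 knockout values exceeded all 3 wild-type values, and the closest pair, knockout replicate 1 and wild-type replicate 2, lay 1.24 FPKM apart. The means were 4.69 ± 1.11 FPKM in knockout and 2.17 ± 0.422 FPKM in wild type (SD, n = 3 each), and the log2 difference was 0.84 (SE 0.17, 95% interval 0.45 to 1.22). Its unadjusted p of 0.00107 by limma was the 78th smallest of 14176, and its adjusted p was 0.194. The exact permutation test (two-sided) gave p = 0.1, the smallest that 3 libraries against 3 allow. Without any single library the log2 difference was 0.68 to 0.95. Within females (2 knockout, 1 wild type) it was 1.15 and within males (1 knockout, 2 wild type) 0.51.

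Markers of 2 cell types were set beside Osmr. Of 9 Müller glia markers 2 were higher and 2 lower in every knockout library, and their sum was 1715 to 1945 FPKM in knockout and 1690 to 1805 FPKM in wild type. Of 8 microglia markers 4 were higher in every knockout library and none lower, and their sum was 43.0 to 47.4 FPKM in knockout and 30.9 to 33.8 FPKM in wild type. Over all tested genes, every knockout library was above every wild-type library for 7.83% and below for 8.04%. The part of microglia, or of any other cell type, in the level of Osmr was not tested. No marker of either list was at 0 in all libraries.

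The receptors of LIF and CNTF were slightly lower in knockout by values that did not pass the test. Lifr (ENSMUSG00000054263.12, chromosome 15, 7090614 to 7197489, plus strand), the chain shared by LIF, CNTF and CLCF1, lies 215644 bases from Osmr. It was at 13.0, 12.9 and 11.9 FPKM in knockout replicates 1, 2 and 3 and 13.3, 13.1 and 14.2 FPKM in wild type. The genotypes did not overlap, but knockout replicate 1 and wild-type replicate 2 differed by only −0.0868 FPKM. The log2 difference was −0.09 (95% interval −0.25 to 0.06, limma adjusted p = 0.698). It was −0.06 without knockout replicate 3 or without wild-type replicate 3, and −0.02 with the lens term. Cntfr (ENSMUSG00000028444.17, chromosome 4, 41657498 to 41697089, minus strand), the membrane-anchored subunit that recognises CNTF, was at 21.9, 21.8 and 22.1 FPKM in knockout and 24.4, 22.8 and 24.1 FPKM in wild type. Knockout libraries were tightly grouped below all wild-type libraries. The log2 difference was −0.11 (95% interval −0.23 to 0.01, limma adjusted p = 0.573), and stayed between −0.14 and −0.09 over all alternatives.

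The receptor genes for interleukins 6 and 11 gave no difference beyond the spread between libraries. Il11ra1 (ENSMUSG00000073889.10, chromosome 4, 41699989 to 41769474, plus strand), which starts 2899 bases from Cntfr, was at 6.23, 5.66 and 7.54 FPKM in knockout replicates 1, 2 and 3 and 6.36, 6.94 and 5.34 FPKM in wild type. The ranges overlapped throughout. The log2 difference was 0.05 (95% interval −0.24 to 0.34, limma adjusted p = 0.925), and it was −0.05 without knockout replicate 3 and −0.04 without wild-type replicate 3. Il11ra1 has a near copy, Il11ra2, whose 1299-base transcript aligned to it at 99.0% identity. Il11ra2 was listed at 0 in each library, so how reads of the pair were divided is uncertain.

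Il6ra (ENSMUSG00000027947.11, chromosome 3, 89864059 to 89913196, minus strand), which gives a cell its response to interleukin-6, was the lowest member. It was at 0.127, 0.340 and 0.411 FPKM in knockout replicates 1, 2 and 3 and 0.0519, 0 and 0.295 FPKM in wild type. Multiplied by relative depth, these values were 3, 8 and 10 times 0.0396 in knockout and 1, 0 and 6 times 0.0396 in wild type, each within 0.000185 of a whole multiple. The libraries thus differed by a few such steps, and the ranges overlapped. The exact permutation test of the log2(FPKM + 1) values gave p = 0.2 (two-sided). The gene shares 242 of its 8642 exonic bases with an annotated antisense gene, Gm42809, and whether reads were counted by strand is not stated in the labels.

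**Figure D2:**
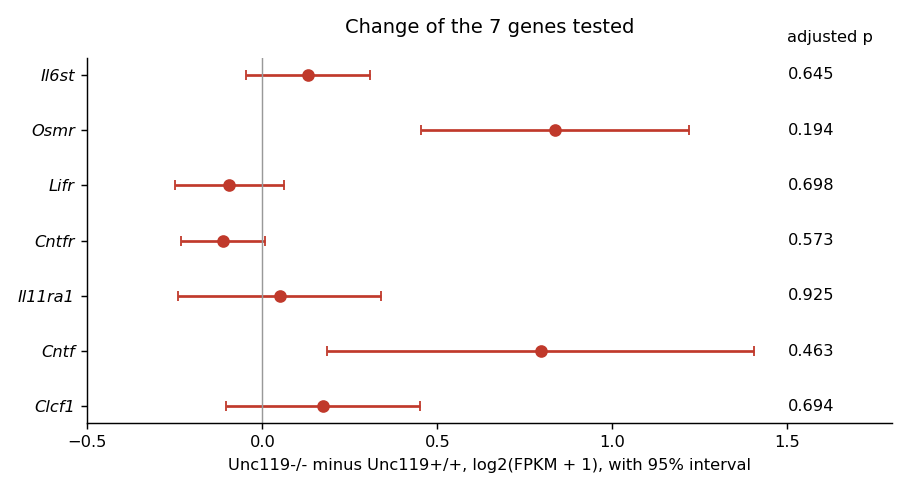
Difference between knockout and wild type on the log2(FPKM + 1) scale for the 7 tested genes, with limma's 95% interval and its p adjusted over all 14176 genes at the right. The intervals of Osmr and Cntf lie above 0, and no adjusted p is under 0.05.

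Set against gp130 in the same library, Osmr and Cntfr differed between genotypes in opposite directions. Osmr was at 15.4%, 21.5% and 14.1% of the Il6st level in knockout replicates 1, 2 and 3, and at 8.95%, 10.1% and 6.85% in wild type. Cntfr was at 88.4%, 78.7% and 72.6% of the Il6st level in knockout replicates 1, 2 and 3, and at 100.2%, 89.6% and 95.2% in wild type. The genotypes did not overlap in either ratio, but for Cntfr knockout replicate 1 (88.4%) and wild-type replicate 2 (89.6%) lay close. The lowest Cntfr ratio was in knockout replicate 3, where Il6st was highest (30.5 FPKM) and Cntfr itself was at 22.1 FPKM. Lifr was at 46.1% ± 6.72 of Il6st in knockout and 54.0% ± 2.38 in wild type (SD, n = 3 each), with 1 knockout library inside the wild-type range. Il11ra1 was at 23.4% ± 2.63 in knockout and 24.8% ± 3.28 in wild type. Set against the other partner receptor, Osmr was at 37.1% ± 8.46 of the Lifr level in knockout and 16.1% ± 3.75 in wild type. These ratios are descriptions of FPKM and were not tested.

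**Figure D3:**
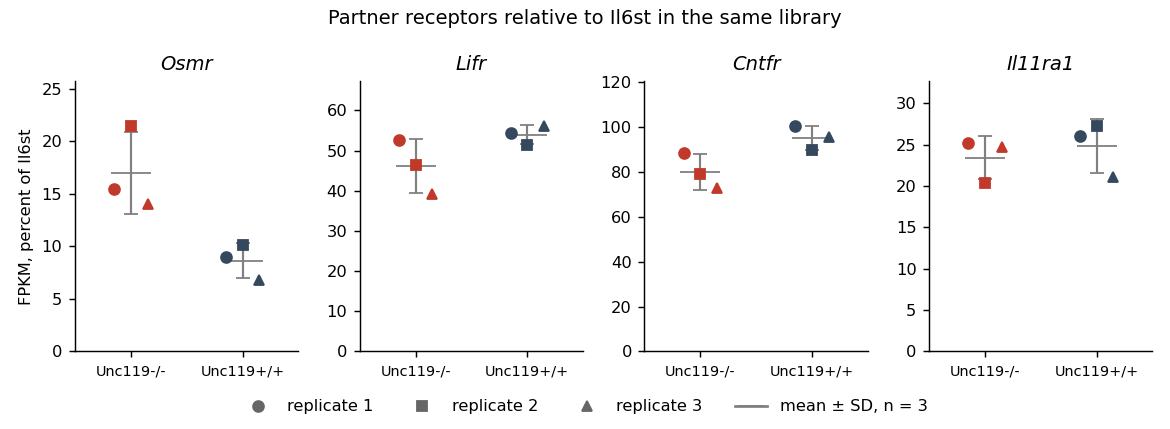
Level of 4 partner receptors as a percentage of Il6st (both in FPKM) in the same library, knockout left of wild type, with mean and SD of 3 libraries. Osmr is at 14.1% to 21.5% in knockout and 6.85% to 10.1% in wild type, and Cntfr at 72.6% to 88.4% in knockout and 89.6% to 100.2% in wild type.

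Among the ligands, Lif was rare and higher in knockout. Lif (ENSMUSG00000034394.14, chromosome 11, 4257557 to 4272514, plus strand), the cytokine that injured retina makes in Müller glia, was at 0.512, 0.666 and 0.373 FPKM in knockout replicates 1, 2 and 3, against 0.299, 0.256 and 0.243 FPKM in wild type. Each knockout value was above each wild-type value, and the largest was in the library with the highest Osmr. The means were 0.517 ± 0.147 FPKM in knockout and 0.266 ± 0.0294 FPKM in wild type (SD, n = 3 each). On the log2(FPKM + 1) scale, which flattens such low values, the difference was 0.26, and with a pseudocount of 0.1 it was 0.73. Lif was under the filter of the main test, the exact permutation test gave p = 0.1 (two-sided, the smallest possible), and with no filter limma's adjusted p was 0.547.

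Cntf was the most abundant ligand. Cntf (ENSMUSG00000079415.2, chromosome 19, 12763660 to 12765632, minus strand) was at 4.38, 5.73 and 9.36 FPKM in knockout replicates 1, 2 and 3, against 4.23, 3.35 and 2.16 FPKM in wild type. The ranges did not overlap, but knockout replicate 1 was only 0.151 FPKM above wild-type replicate 1. The log2 difference was 0.79 (SE 0.26, 95% interval 0.19 to 1.40), with an unadjusted p of 0.0170 and an adjusted p of 0.463 by limma. Cntf was highest in knockout replicate 3, where lens RNA was most abundant, and lowest in wild-type replicate 3, where it was least. Without knockout replicate 3 the log2 difference was 0.53, and with the lens term it was 0.35 (adjusted p = 0.938). Within females it was 1.40 and within males 0.17. Whether lens tissue contributed Cntf transcript was not tested.

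Cntf also shares sequence with its neighbour. Of its 1073 exonic bases, 847 (78.9%) are annotated as exon of Zfp91, a zinc finger gene on the same strand, so strand cannot separate their reads. Zfp91 was at 36.6, 36.3 and 35.5 FPKM in knockout replicates 1, 2 and 3 and 38.0, 37.4 and 40.1 FPKM in wild type. It was thus lower in each knockout library, opposite to Cntf, but how reads were divided between the genes is uncertain and with it the level of Cntf.

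**Figure D4:**
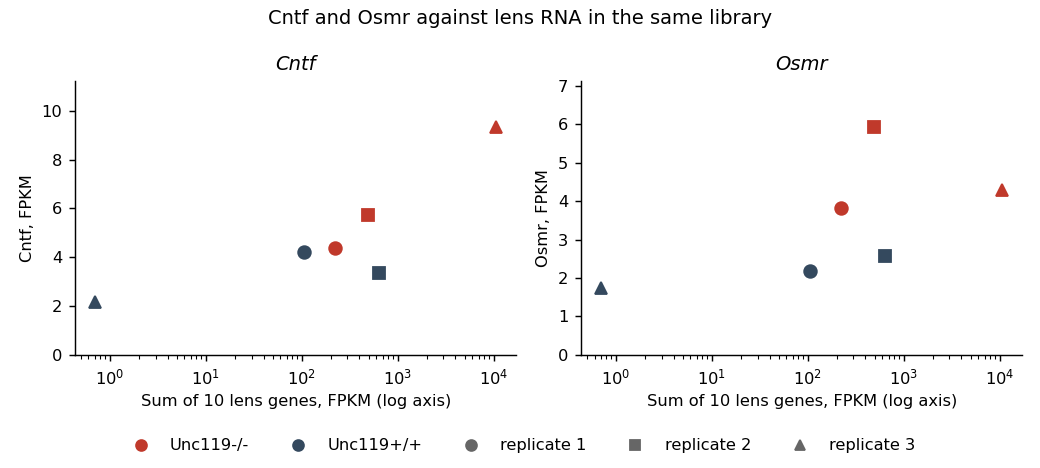
Cntf (left) and Osmr (right) in FPKM against the summed FPKM of 10 lens genes in the same library (log axis), with knockout in red, wild type in blue and the replicate number as the marker shape. Cntf is highest, at 9.36 FPKM, where the lens sum is 10686 FPKM, while Osmr is highest, at 5.94 FPKM, in knockout replicate 2, where the lens sum is 495 FPKM.

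Clcf1, which acts through the same receptor as CNTF, differed less. Clcf1 (ENSMUSG00000040663.9, chromosome 19, 4214238 to 4223490, plus strand) was at 1.77, 1.71 and 2.18 FPKM in knockout replicates 1, 2 and 3 and 1.49, 1.57 and 1.60 FPKM in wild type. The genotypes did not overlap, and knockout replicate 3 was highest. The log2 difference was 0.17 (95% interval −0.11 to 0.45, limma adjusted p = 0.694), and it was 0.10 without knockout replicate 3, with the lens term or with quantile normalization. Of its 3806 exonic bases 311 belong also to an annotated gene on the same strand, AC109138.7.

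In order of their mean over the 6 libraries, the members ran from Il6st (26.4 FPKM) through Cntfr (22.9), Lifr (13.1), Il11ra1 (6.34), Cntf (4.87), Osmr (3.43), Clcf1 (1.72) and Lif (0.392) to Il6ra (0.204 FPKM). Neighbours in this order were apart in all 6 libraries for Cntfr over Lifr, Lifr over Il11ra1, Osmr over Clcf1 and Clcf1 over Lif. Il6st was above Cntfr in 5 libraries, Cntf above Osmr in 5, Il11ra1 above Cntf in 4 and Lif above Il6ra in 4, so these neighbours were not separated beyond their spread.

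The 5 tested genes whose profile over the 6 libraries was nearest to that of Osmr were Rnase4, Jak3, Btc, Rtp3 and Rfx2. The measure was the root mean square difference of centred log2(FPKM + 1) values, which ran from 0.13 for Rnase4 and Jak3 to 0.17 for Rtp3 and Rfx2. Jak3, a kinase of the JAK family, was at 2.29, 3.25 and 2.48 FPKM in knockout replicates 1, 2 and 3 and 1.17, 1.04 and 1.08 FPKM in wild type. Btc, the growth factor betacellulin, was at 9.90, 12 and 8.40 FPKM in knockout and 4.63, 4.93 and 3.53 FPKM in wild type. Like Osmr, both were highest in knockout replicate 2. Since these genes were chosen by nearness to the profile of Osmr, that likeness is no independent evidence.

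Promoter windows are shown for Osmr, Lif and Cntf, listed at about 2 times their wild-type means, and for Socs3, the tested feedback inhibitor with the largest log2(FPKM + 1) difference. Each runs from 250 bases before to 50 after a start annotated by RefSeq (GRCm38.p6, the mm10 assembly), written 5′ to 3′ on the gene's strand. The windows are chr15:6874264-6874563 (minus strand) for Osmr, chr11:4257318-4257617 (plus) for Lif, chr19:12765583-12765882 (minus) for Cntf and chr11:117969317-117969616 (minus) for Socs3. Capitals mark the STAT motif TTCNNNGAA, which reads the same on either strand, and the AP-1 motif TGACTCA, searched on both strands.
Osmr: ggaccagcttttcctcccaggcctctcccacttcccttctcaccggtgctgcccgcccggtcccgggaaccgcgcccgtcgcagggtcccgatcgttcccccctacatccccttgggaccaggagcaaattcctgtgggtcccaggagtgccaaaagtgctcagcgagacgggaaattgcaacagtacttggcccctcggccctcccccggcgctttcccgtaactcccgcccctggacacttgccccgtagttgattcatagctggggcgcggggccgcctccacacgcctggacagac
Lif: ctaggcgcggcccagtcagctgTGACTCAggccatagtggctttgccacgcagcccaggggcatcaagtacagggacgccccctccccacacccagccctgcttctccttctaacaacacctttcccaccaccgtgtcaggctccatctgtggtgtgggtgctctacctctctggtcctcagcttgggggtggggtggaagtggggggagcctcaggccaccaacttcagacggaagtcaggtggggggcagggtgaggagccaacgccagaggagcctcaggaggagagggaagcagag
Cntf: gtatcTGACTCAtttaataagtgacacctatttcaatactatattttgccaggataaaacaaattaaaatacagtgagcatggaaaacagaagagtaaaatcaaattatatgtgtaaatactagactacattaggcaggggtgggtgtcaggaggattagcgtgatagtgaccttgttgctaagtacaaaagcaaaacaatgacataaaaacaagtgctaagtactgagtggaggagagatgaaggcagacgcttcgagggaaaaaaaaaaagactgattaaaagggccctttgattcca
Socs3: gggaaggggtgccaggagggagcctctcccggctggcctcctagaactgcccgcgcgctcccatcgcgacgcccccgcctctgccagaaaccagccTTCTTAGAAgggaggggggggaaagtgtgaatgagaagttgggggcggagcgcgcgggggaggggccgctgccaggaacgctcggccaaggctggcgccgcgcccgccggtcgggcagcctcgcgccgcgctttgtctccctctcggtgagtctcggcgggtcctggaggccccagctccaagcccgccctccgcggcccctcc
The window of Socs3 held TTCTTAGAA, 154 bases before the start. None of the 15 windows of the 8 members with one (Clcf1 was not matched) held TTCNNNGAA, a motif present in 8.30% of all 32851 windows. TGACTCA was in the windows of Lif and Cntf, and in 5.20% of all windows on either strand. The AP-1 motif was chosen after the windows had been seen. A match is a description of letters, and its absence says only that they are not in the window.

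The other ligand genes of the family ran from a listed 0 to a mean of 1.76 FPKM over the 6 libraries for Ctf1. Oncostatin M (Osm), the ligand of OSMR, was listed at 0 in all 6 libraries, as was Il31, and as Rpl26 shows, a listed 0 does not establish that a transcript was missing. Il6 was at 0 in 5 libraries and 0.146 FPKM in knockout replicate 3. Of 9 further ligand genes 2 were tested, Ctf1 and Ebi3, and neither passed. Ctf1, cardiotrophin 1, which binds LIFR, was at 2.1, 1.40 and 2.49 FPKM in knockout replicates 1, 2 and 3 and 1.28, 2.61 and 0.677 FPKM in wild type (limma adjusted p = 0.757). The other receptor genes, Il27ra and Il31ra, were at 0.149 FPKM or less.

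Inside the cell, the kinases of the receptors showed no difference beyond their spread, while Stat3 was higher without passing the test. None of 10 kinase, STAT and adaptor genes passed at an adjusted p of 0.05. Stat3 and the adaptor gene Gab1 were higher at an unadjusted p under 0.05. Stat3 was at 24.1, 29.4 and 25.8 FPKM in knockout replicates 1, 2 and 3 and 19.8, 21.9 and 20.3 FPKM in wild type (log2 difference 0.34, limma adjusted p = 0.284). Jak1, the main kinase bound to gp130 and the most abundant of these genes, was at 41.1 ± 0.513 FPKM in knockout and 43.0 ± 1.38 FPKM in wild type (SD, n = 3 each, limma adjusted p = 0.699).

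None of the 6 tested inhibitor genes passed either, and 3 were above and 3 below wild type. Socs3 was at 2.0, 1.91 and 3.28 FPKM in knockout replicates 1, 2 and 3 and 1.23, 1.38 and 1.23 FPKM in wild type. The ranges did not overlap, and knockout replicate 3, the library richest in lens RNA, was highest. The log2 difference was 0.55 (limma adjusted p = 0.420), and the fit without that library is not given for Socs3. Pias3, an inhibitor of STAT3 and the most abundant of the list, was at 51.2 ± 1.83 FPKM in knockout and 54.9 ± 5.99 FPKM in wild type (SD, n = 3 each). Adam10 and Adam17, proteases that shed IL6RA, were at 15.0 ± 0.582 and 6.17 ± 0.598 FPKM in knockout and 15.0 ± 0.793 and 5.44 ± 0.373 FPKM in wild type, and neither passed.

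Of 19 tested genes on a list of gp130 and STAT3 targets and genes of reactive glia, 5 rose, at a limma adjusted p under 0.05 that 0.205% of all genes passed in that direction, and none fell. The list was drawn up knowing earlier results of these data, so the count is no independent evidence. The 5 were Edn2 (log2 change 3.20), Fgf2 (2.45), Cebpd (1.33), Serpina3n (1.08) and Gfap (0.93), and the median of the 19 was 0.65. Edn2 and Fgf2 encode the peptide endothelin 2 and a growth factor, Serpina3n a protease inhibitor, and Gfap a filament protein that reactive glia make. Serpina3n has close relatives in its gene cluster and Fgf2 overlaps Nudt6 on the opposite strand, so reads of both could have been divided between genes. Cebpd, a transcription factor induced through STAT3, was at 5.43, 7.99 and 6.53 FPKM in knockout replicates 1, 2 and 3 and 2.14, 2.60 and 1.43 FPKM in wild type (limma adjusted p = 0.0412). It was highest in knockout replicate 2 and lowest in wild-type replicate 3, as was Osmr, and a link between these genes was not tested. Junb, an AP-1 subunit, did not pass at 15.3, 18.1 and 15.4 FPKM in knockout and 9.46, 11.7 and 10.7 FPKM in wild type (limma adjusted p = 0.119). Of all 55 pathway and target genes 39 were tested and these 5 passed, and the number was 2 without wild-type replicate 1 or 3, 3 without wild-type replicate 2 or knockout replicate 1, 3 with the replicate block and 1 with the lens term.

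**Figure D5:**
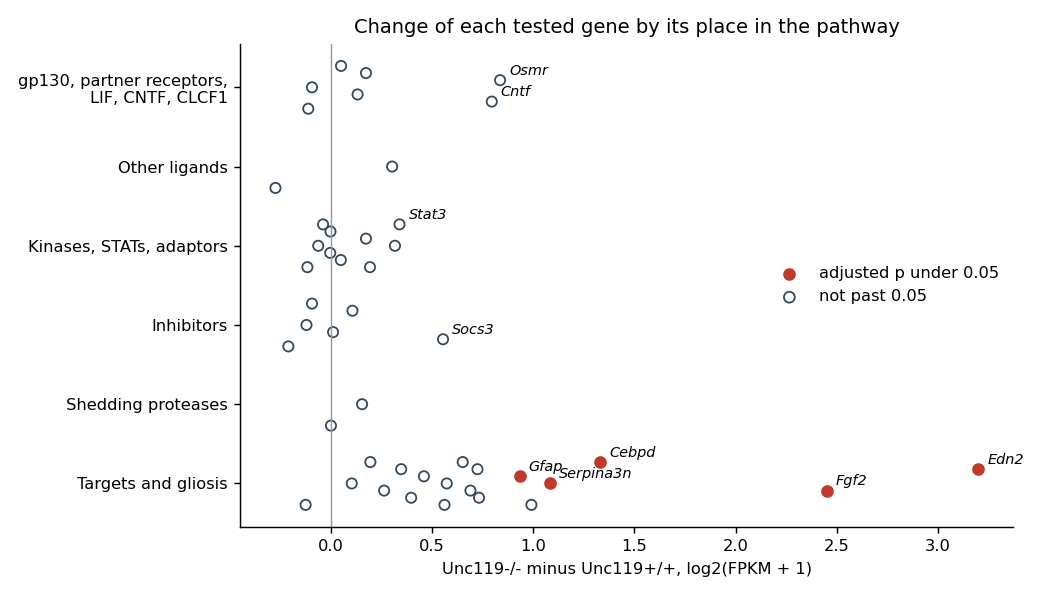
Difference between knockout and wild type on the log2(FPKM + 1) scale for each tested gene, grouped by its place in the pathway (vertical offsets within a group carry no meaning). Filled red points passed an adjusted p of 0.05, and all 5 of them are among the targets and genes of gliosis, from 0.93 for Gfap to 3.20 for Edn2.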

How the data were processed

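The authors deposited 1 table of FPKM values per library, as the file headers name the unit. Per the submitters' processing notes, TopHat2 2.1.1, Cuffdiff 2.2.1 and the mm10 genome were used. Their annotation, scaling and strand setting are not stated there. Per the labels' protocols, libraries were made from TRIzol RNA with a stranded mRNA kit. FPKM values are not counts, and the number of fragments behind them is not known. Relative depth was taken as the most frequent ratio (within 0.015 log2 units) among genes at 0.3 FPKM or less.

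Knockout was compared with wild type over the 14176 genes averaging 0.5 FPKM or more. The test was limma's (version 3.58.1, R 4.3.3), applied to log2(FPKM + 1) values with a mean-dependent prior variance, two-sided, with Benjamini-Hochberg adjustment. This scale understates changes of low genes. Members below the filter were given an exact permutation test. Named genes were the members, Unc119, list genes past the threshold or largest or most abundant, and the 5 profiles nearest to Osmr; other genes were chosen after their values were seen. The members and lists were chosen with earlier results of these data known. Alternatives were another pseudocount, 2 other filters, 2 scalings, no trend, library weights, a replicate block, sex and lens terms, and leaving out each library. Positions are from GENCODE M21 on mm10. Python 3.11.15, pandas 2.3.3 and matplotlib 3.10.9 were used.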

Additional observations from a re-analysis of the deposited data

How the results depend on the processing

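Under none of the 16 alternatives did a tested member pass the adjusted threshold. Il6ra and Lif were tested only where no filter was applied, and Clcf1 was not tested with the filter of 2 FPKM. The log2 difference stayed positive for Osmr (0.68 to 1.07), Cntf (0.35 to 1.01), Il6st (0.04 to 0.21) and Clcf1 (0.10 to 0.26), and negative for Cntfr (−0.14 to −0.09) and Lifr (−0.12 to −0.02), with adjusted p between 0.175 and 0.992 among them. Il6ra and Lif stayed positive under the 9 alternatives that gave them a value, and a pseudocount of 0.1 moved them most, to 1.03 and 0.73. Il11ra1 turned negative with the lens term (−0.14), without knockout replicate 3 (−0.05) and without wild-type replicate 3 (−0.04), with the other single libraries left out giving up to 0.13. Genes called in all were 33, against 20 with no trend, 19 with a sex term, 7 with the lens term, 15 with the replicate block and 12 to 27 without single libraries. Of the pathway genes 5 were called, against 1 with the lens term, 3 with the replicate block and 2 to 4 without single libraries. The cause of these moves was not tested, though the terms, the block and the omissions each leave fewer residual degrees of freedom.

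The labels do not say that equal replicate numbers mark a pair. Deviations from the group means correlated across genes at 0.072, −0.0902 and −0.119 for knockout and wild-type replicates 1, 2 and 3, and not every library correlated best with its own number. The replicate block changed no call of a member. Depth limits Il6ra and Lif above all, the members with the lowest values.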
